A study of Mus musculus with 6 samples.

Results

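The genes described here are the caspases, the Bcl2 family with its Bnip relatives, the inhibitor of apoptosis proteins, the apoptosome, the death receptors with their adaptors, the calpains and the Gadd45 genes. They were chosen by gene symbol alone, from probe sets annotated with exactly 1 gene. The choice gave 92 of 12422 probe sets and 62 of 8251 genes in the table analysed. Casp8ap2 entered through its symbol and is a caspase-8 binding protein, not a caspase. A further 31 genes whose symbols match are not among the 62. Of these, the Bcl2a1 genes and Bnip3l are described only at the end, on probe sets with several symbols. Each gene was read on its probe set of highest mean over all mice, and its remaining probe sets are given where they differ.

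Messenger RNA of the whole striatum was measured on 6 Affymetrix arrays, 1 per mouse, from 3 Hdh4/Q80 mice and from 3 littermates that were wild type. Per the labels, the mice of both groups were C57BL/6 females at an age of 12 months. The Hdh4/Q80 allele lengthens the CAG repeat of the mouse's own huntingtin gene, so that gene's promoter drives it in every cell type. The sources used here do not give the number of mutant copies per mouse. The values are log2 expression after robust multi-array average (RMA) processing, so a difference of 1 is a doubling. Differences are Hdh4/Q80 minus wild type. Values of different probe sets are not comparable as amounts of RNA.

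Cell death runs along connected routes. In the mitochondrial route, BH3-only proteins such as Bid, Bad and Bim release Bax and Bak from Bcl2 and its relatives, cytochrome c leaves the mitochondrion, and Apaf1 assembles it into the apoptosome that activates caspase-9. In the receptor route, ligands of the tumour necrosis factor family bind receptors such as Fas, and adaptors bring caspase-8 to them. Caspase-8 can cut Bid and so join the routes. Caspases and calpains also cut mutant huntingtin itself, which is why both families are studied in Huntington's disease, where the striatum degenerates first.

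No cell death gene was called different in the striatum of Hdh4/Q80 mice relative to wild type. With limma and Benjamini-Hochberg adjustment over the whole table, 0 of 62 genes and 0 of their 92 probe sets had an adjusted p under 0.05, against 0% of all probe sets, and the lowest value was 0.857. Unadjusted, 3 genes (4.84%) had p under 0.05, against 4.3% of all genes. These were Casp8 and Bad on the higher side (2.17% of all genes) and Bid on the lower side (2.13%). By probe set there were 6 of 92 (6.52%), against 5.1% of all. Differences ran from -0.28 for Bid to 0.27 for Bad, and 45 genes (72.6%) lay within 0.1 of 0, against 70.4% of all genes. The 95% interval of the difference stayed within 1.5-fold, up or down, in 62 of 62 genes and within 1.25-fold in 51, against 8176 and 6427 of all 8251 genes. By probe set it was within 1.5-fold in 91 of 92, the exception being the dimmer probe set of Bad (-0.60 to -0.02). RMA shrinks differences of dim probe sets, and 9 of the 62 genes, among them Casp6, Casp8, Bid and Fas, had means below the lower quartile of every array, so their intervals are weak limits. The 3 genes became 6 without Hdh4/Q80 replicate 7 (7.16% of all genes), 0 without wild-type replicate 4 (3.01% of all genes) and 1 without wild-type replicate 5 (2.65% of all genes). In whole tissue, fewer cells of a type and less RNA per cell cannot be told apart.

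**Figure D1:**
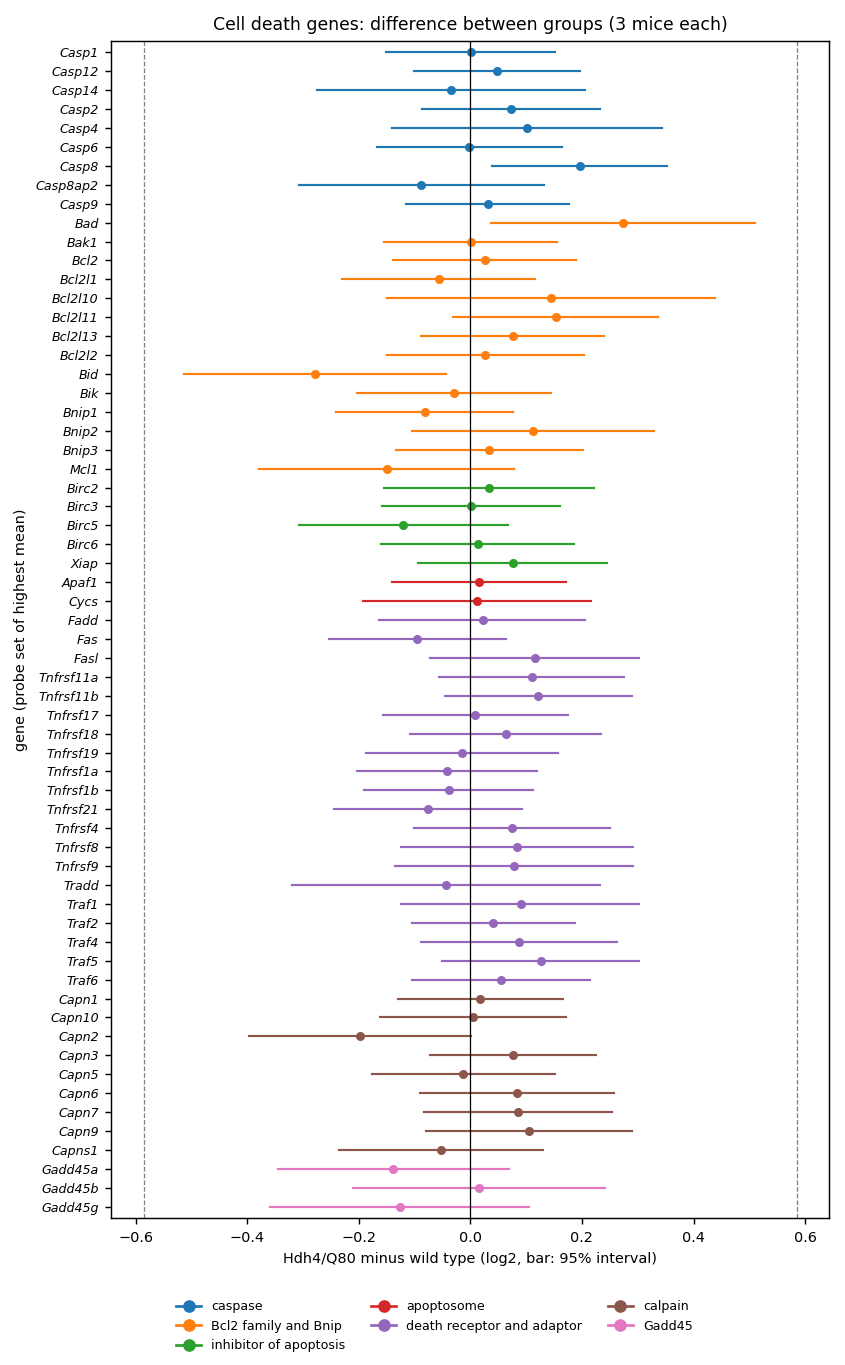
Difference between 3 Hdh4/Q80 and 3 wild-type mice (x axis, log2) for each of the 62 cell death genes (y axis, grouped and coloured by role); dots are limma estimates, bars 95% intervals and dashed lines a 1.5-fold change. All 62 intervals lie between the dashed lines, and those of Casp8, Bad and Bid do not reach 0.

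The array of Hdh4/Q80 replicate 8 stood apart from the others, with a mean correlation of 0.992 against 0.995 to 0.997 for the remaining mice. It held the highest value for 23 and the lowest for 12 of the 62 genes, so it was at an extreme for 56.5% of them, against 62.5% of all genes. The median SD between mice over the 62 genes was 0.0866 in Hdh4/Q80 and 0.0699 in wild type, and without replicate 8 the Hdh4/Q80 median was 0.071. Over all genes the same medians were 0.107, 0.0661 and 0.0675. The 3′ minus 5′ difference of the actin control probe sets, a measure of RNA integrity and labelling, was 0.63, 0.86 and 0.86 in Hdh4/Q80 replicates 7, 8 and 9, against 0.73, 0.57 and 0.62 in wild-type replicates 4, 5 and 6. On the Gapdh control probe sets the same difference was 0.116, 0.21 and 0.33 in Hdh4/Q80 replicates 7, 8 and 9. In wild-type replicates 4, 5 and 6 it was 0.255, 0.221 and 0.259. Replicate 8 was thus above every wild-type mouse for actin and below every one for Gapdh. The part of these control differences in the results below was not tested.

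**Figure D2:**
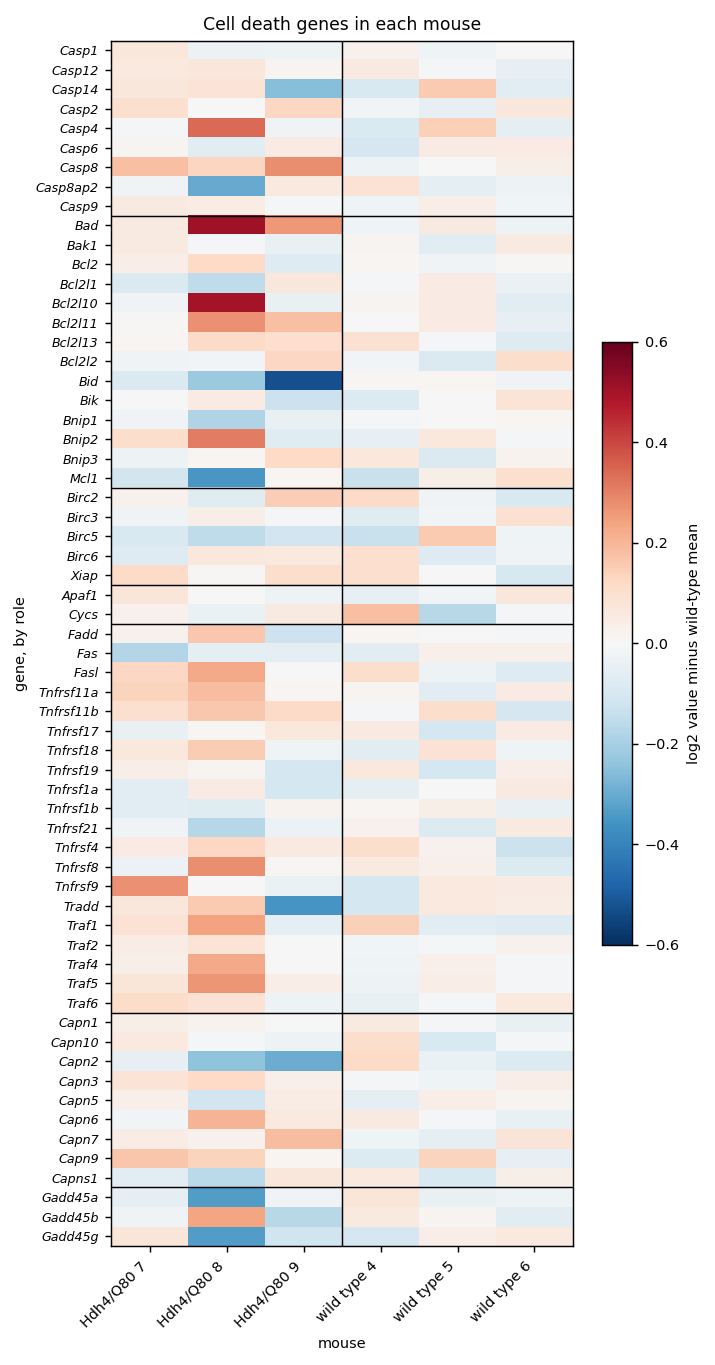
Each of the 62 cell death genes (rows, separated by role) in each mouse (columns, Hdh4/Q80 left of wild type), coloured by its log2 value minus the wild-type mean. The strongest colours fall in Hdh4/Q80 replicates 8 and 9, such as Bad and Bcl2l10 in replicate 8 and Bid in replicate 9.

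Small positive differences outnumbered negative ones among these genes. Of 62 genes 42 (67.7%) had a difference above 0, where 46.7% of all genes did, and the median was 0.02 against -0.01 over all genes. Without Hdh4/Q80 replicate 8 the count was 38 of 62, with 51.4% of all genes above 0, and without wild-type replicate 5 it was 36. After quantile or cyclic loess normalization it was 40 in each, against 49.4% and 50% of all genes. This count is a description with no test, since genes are not independent of each other.

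**Figure D3:**
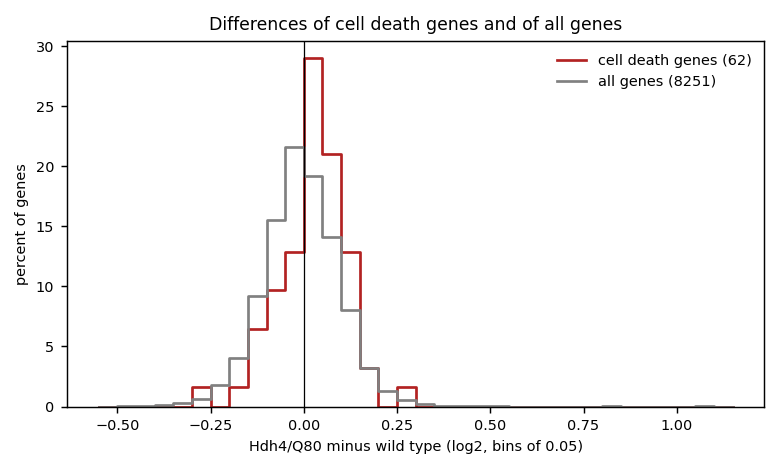
Percent of genes (y axis) by difference between Hdh4/Q80 and wild type (x axis, log2, bins of 0.05) for the 62 cell death genes (red) and all 8251 genes (grey). The red outline lies mostly to the right of 0 and inside the range of the grey one.

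Among the caspases, Casp8, the initiator recruited by death receptors, had the smallest p-value of all 62 genes. Casp8 read 4.96, 4.91 and 5.06 in Hdh4/Q80 replicates 7, 8 and 9, against 4.75, 4.78 and 4.81 in wild-type replicates 4, 5 and 6. Every Hdh4/Q80 mouse was above every wild-type mouse. The groups averaged 4.97 ± 0.0754 and 4.78 ± 0.0342 (Hdh4/Q80 and wild type, SD, n = 3 each), so Hdh4/Q80 was higher by 0.20 (95% interval 0.04 to 0.35), or 1.15-fold (limma, unadjusted p = 0.0194, adjusted p = 0.857). Leaving out each mouse in turn gave 0.16 to 0.23, the highest without Hdh4/Q80 replicate 8. The unadjusted p in limma's test was then 0.0638 without wild-type replicate 4, 0.0545 without wild-type replicate 5 and 0.058 without Hdh4/Q80 replicate 9. It was 0.00744 to 0.0395 with each of the remaining mice left out. The probe set was dim on all arrays.

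On the lower side, Bid, the BH3-only protein that caspase-8 cuts, had the smallest p-value. Bid read 5.31, 5.17 and 4.87 in Hdh4/Q80 replicates 7, 8 and 9, against 5.40, 5.41 and 5.37 in wild-type replicates 4, 5 and 6. Every Hdh4/Q80 mouse was below every wild-type mouse, and replicate 9 was the lowest. The difference was -0.28 ± 0.105 (SE), 1.21-fold lower (limma, unadjusted p = 0.0244, adjusted p = 0.857), and it was -0.15 without Hdh4/Q80 replicate 9 and -0.11 with array weights.

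The 250 bases before the annotated starts of Casp8 and Bid are shown because these genes had the smallest p-value on either side. The sequences are from RefSeq, build GRCm38.p6, 5′ to 3′ on the gene's strand, with capitals marking the searched motifs. The Casp8 window lies at chr1:58802252-58802501 on the + strand and the Bid window at chr6:120916825-120917074 on the - strand.
Casp8: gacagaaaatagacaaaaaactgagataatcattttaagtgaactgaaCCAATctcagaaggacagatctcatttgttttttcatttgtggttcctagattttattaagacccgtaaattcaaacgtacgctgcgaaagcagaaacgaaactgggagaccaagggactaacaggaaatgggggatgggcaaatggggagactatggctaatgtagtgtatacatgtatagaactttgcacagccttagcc
Bid: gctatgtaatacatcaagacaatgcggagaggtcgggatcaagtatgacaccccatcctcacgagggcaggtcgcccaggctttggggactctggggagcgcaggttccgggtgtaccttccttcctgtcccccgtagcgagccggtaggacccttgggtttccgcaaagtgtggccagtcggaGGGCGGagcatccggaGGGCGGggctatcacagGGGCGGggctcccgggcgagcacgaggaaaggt
Motifs searched on both strands were the GC box (GGGCGG), the CCAAT box (CCAAT), the TATA box (TATAAA) and the cAMP response element (TGACGTCA), none of which overlapped in these windows. The Casp8 window held 1 CCAAT box and 5 CpG dinucleotides, and the Bid window 3 GC boxes and 18 CpG dinucleotides. Of 70 windows found for 57 of the 62 genes, 57.1% held a GC box, 30% a CCAAT box, 5.71% a TATA box and 2.86% a cAMP response element. Over all 32851 windows of the table, for 27025 genes, the shares were 32.7%, 33.8%, 12.4% and 1.55%. The median number of CpG dinucleotides was 12 in the windows of cell death genes and 6 in all windows. All windows include many genes that were not analysed here, so the shares do not compare like sets of genes. These matches describe the letters and not sites in use.

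The remaining caspases had differences from -0.04 to 0.10 on their brightest probe sets, with overlapping groups. Casp6, an executioner caspase that cuts huntingtin, averaged 5.12 ± 0.059 in Hdh4/Q80 and 5.12 ± 0.086 in wild-type mice, with overlapping groups and an interval of -0.17 to 0.16 for the difference. Casp9, the apoptosome's caspase, read 7.40, 7.39 and 7.34 in Hdh4/Q80 mice against 7.32, 7.38 and 7.33 in wild type, a difference of 0.03, and its other probe sets gave -0.05, -0.02 and 0.07. Casp2, an initiator activated by stress, had a difference of 0.07 on 1 probe set and 0.13 on the other (7.18, 7.28 and 7.19 in Hdh4/Q80, against 7.05, 7.15 and 7.05 in wild type). On that second probe set the groups did not overlap, yet neither probe set passed limma's test (adjusted p = 0.871 and 0.857). The inflammatory caspases Casp1, Casp4 and Casp12 had differences of 0.001, 0.10 and 0.05, and Casp14, a skin caspase, -0.04. Of the 8 caspases 6 were above 0. Casp8ap2 differed by -0.09 on its brighter probe set and by 0.18 on a dim one, where Hdh4/Q80 mice read 4.27, 4.43 and 4.33 and wild-type mice 4.20, 4.20 and 4.09 (limma, unadjusted p = 0.0329, adjusted p = 0.857).

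In the Bcl2 family, 9 of 14 genes were above 0 with a median of 0.03, and Bad gave opposite results on its probe sets. Bad is a BH3-only protein that binds Bcl2 and Bcl-xL when unphosphorylated. Its brighter probe set read 8.01, 8.47 and 8.22 in Hdh4/Q80 replicates 7, 8 and 9, against 7.93, 8.01 and 7.93 in wild-type replicates 4, 5 and 6, a difference of 0.27 ± 0.106 (SE). Its dimmer probe set read 7.06, 6.56 and 7.11 in Hdh4/Q80, against 7.14, 7.26 and 7.26 in wild type, a difference of -0.31 ± 0.131 (SE). On the first every Hdh4/Q80 mouse was above every wild-type mouse, although replicate 7 and wild-type replicate 5 both read 8.013 and differed only past the third decimal. On the second every one was below. Each had an unadjusted p under 0.05 in limma's test (0.0275 and 0.0393) and an adjusted p of 0.857. Replicate 8 was the extreme mouse on both, and without it the differences were 0.16 and -0.14. The brighter probe set carries an _i_at suffix, which Affymetrix gives to sets with fewer specific probes, and the mean of both probe sets differed by -0.02. No direction for Bad can therefore be read from these arrays.

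**Figure D4:**
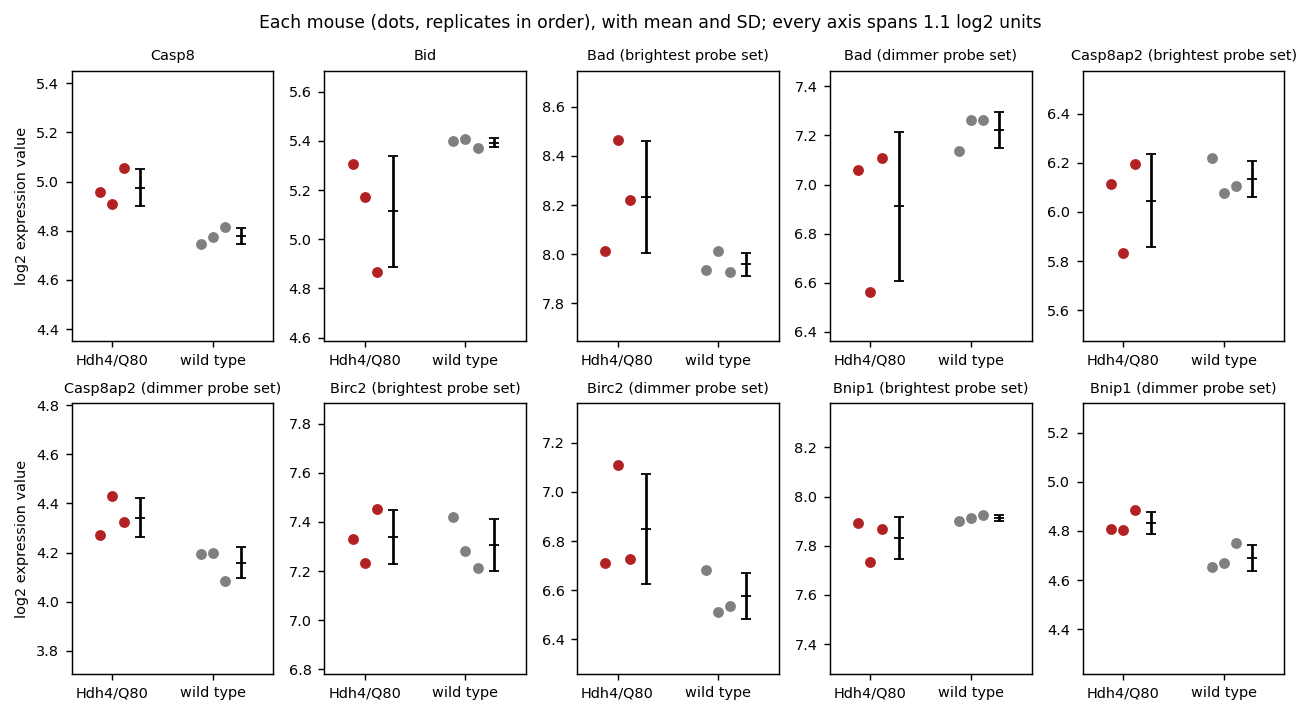
Log2 values of Casp8, Bid, Bad, Casp8ap2, Birc2 and Bnip1 in each mouse (dots, Hdh4/Q80 red and wild type grey) with group mean and SD; genes with a pair of probe sets have a panel for each, and every y axis spans the same range. Bad and Bnip1 lie on opposite sides of wild type in their panels.

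The survival members of the family had small differences. Bcl2 itself read 9.36, 9.44 and 9.24 in Hdh4/Q80 mice, against 9.33, 9.30 and 9.33 in wild type, a difference of 0.03, and its other probe sets gave -0.18 and 0.005. Bcl2l1, which encodes Bcl-xL, a survival protein of adult neurons, differed by -0.06 with an interval of -0.23 to 0.12, and Bcl2l2 (Bcl-w) by 0.03. Mcl1, a short-lived survival protein, read 7.17, 6.93 and 7.29 in Hdh4/Q80 replicates 7, 8 and 9, against 7.15, 7.32 and 7.38 in wild-type replicates 4, 5 and 6. Its groups overlapped, and the difference of -0.15 became as small as -0.05 when 1 mouse was left out. None of the 4 passed the test (limma, adjusted p of 0.857 or more).

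Among the killers and BH3-only members, Bcl2l11, which encodes Bim, read 7.45, 7.71 and 7.62 in Hdh4/Q80 mice, against 7.44, 7.49 and 7.39 in wild type. Its groups overlapped, the difference was 0.15 ± 0.0823 (SE), and its dimmer probe sets gave 0.08 and -0.07. The Bcl2l11 difference was 0.09 without Hdh4/Q80 replicate 8, 0.035 with array weights and 0.05 with its probe sets averaged. Bak1, the pore former measured here, read 7.95, 7.89 and 7.86 in Hdh4/Q80 mice, against 7.91, 7.83 and 7.95 in wild type, a difference of 0.001. Bik, another BH3-only protein, differed by -0.03. Bcl2l13, a mitochondrial relative, differed by 0.08 and Bcl2l10 by 0.14, the last through replicate 8 at 8.86 where replicates 7 and 9 read 8.34 and 8.31. Bnip3, a mitophagy receptor induced by low oxygen, differed by 0.03. Bnip1 also gave opposite signs, smaller than those of Bad and in the reverse order. Its brighter probe set had -0.08 with all Hdh4/Q80 mice below wild type. The closest values there were 7.892 (Hdh4/Q80 replicate 7) and 7.9 (wild-type replicate 4). Its dimmer probe set (mean 4.76) had 0.14 with all above. Neither had an unadjusted p under 0.05 in limma's test (0.278 and 0.067). Bnip2 gave 0.11 and -0.08.

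Apaf1 and Cycs, the apoptosome scaffold and its cytochrome c, were nearly level between groups. Apaf1 read 6.06, 5.99 and 5.95 in Hdh4/Q80 mice and 5.93, 5.97 and 6.05 in wild type, a difference of 0.02 that was -0.003 after quantile normalization and -0.01 after cyclic loess. Cycs read 6.89, 6.83 and 6.92 in Hdh4/Q80 mice and 7.04, 6.70 and 6.85 in wild type, a difference of 0.01 (95% interval -0.19 to 0.22). In both genes the groups overlapped.

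The inhibitors of apoptosis had differences from -0.12 to 0.08. Xiap, which binds caspases directly, differed by 0.08 on its brightest probe set and by 0.15 and 0.002 on the others. Birc3 and Birc6 differed by 0.001 and 0.01. Birc5 (survivin), a protein of dividing cells, averaged 3.73 ± 0.0316 in Hdh4/Q80 and 3.85 ± 0.147 in wild-type mice (SD, n = 3 each), at the dim end of the arrays. Birc2, a ubiquitin ligase of the tumour necrosis factor pathway, differed by 0.03 on its brighter probe set. A dimmer probe set of Birc2 read 6.71, 7.11 and 6.73 in Hdh4/Q80 replicates 7, 8 and 9, against 6.68, 6.51 and 6.54 in wild-type replicates 4, 5 and 6. All Hdh4/Q80 mice were above wild type there, with a difference of 0.27 (limma, unadjusted p = 0.0322, adjusted p = 0.857) that was 0.14 without replicate 8.

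Of 20 death receptor and adaptor genes, 14 were above 0 (12 without Hdh4/Q80 replicate 8), with differences from -0.10 to 0.13 and 0 at an unadjusted p under 0.05 in limma's test. Fas, the death receptor that recruits Fadd, read 4.37, 4.50 and 4.49 in Hdh4/Q80 mice, against 4.49, 4.58 and 4.58 in wild type, a difference of -0.10 on a dim probe set. Its ligand Fasl differed by 0.12, Fadd by 0.02 and Tradd, the adaptor of the tumour necrosis factor receptor, by -0.04. The Tradd difference was 0.001 after quantile normalization and 0.01 after cyclic loess. Tnfrsf1a, that receptor, averaged 7.06 ± 0.0788 in Hdh4/Q80 and 7.10 ± 0.0531 in wild-type mice (SD, n = 3 each), and both of its probe sets differed by -0.04. Tnfrsf1b, the second receptor, differed by -0.04 and Tnfrsf21 (death receptor 6, expressed by neurons) by -0.08. The further receptors Tnfrsf4, Tnfrsf8, Tnfrsf9, Tnfrsf11a, Tnfrsf17, Tnfrsf18 and Tnfrsf19, known mainly from lymphocytes, bone or development, ran from -0.02 to 0.11. Tnfrsf11b (osteoprotegerin), a decoy receptor, had 0.12 with overlapping groups.

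The Traf adaptors, which link these receptors to NF-kB and JNK, had differences above 0 in 5 of 5 genes, from 0.04 (Traf2) to 0.13 (Traf5). Traf5 read 8.17, 8.36 and 8.13 in Hdh4/Q80 replicates 7, 8 and 9, against 8.06, 8.13 and 8.09 in wild-type replicates 4, 5 and 6. Every Hdh4/Q80 mouse was above every wild-type mouse by a margin that was very small for replicate 9, and the difference did not pass (limma, adjusted p = 0.857). It was 0.055 without Hdh4/Q80 replicate 8. Traf6 had 0.06 on its brightest probe set and -0.11 and -0.15 on the others. With all probe sets of a gene averaged, 4 of the 5 Traf genes were above 0. Traf1 and Traf4 both had 0.09.

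The calpains, calcium-activated proteases, had differences between -0.20 and 0.11, and 6 of 9 were above 0. Capn1, the catalytic subunit of mu-calpain, read 8.89, 8.87 and 8.85 in Hdh4/Q80 mice, against 8.91, 8.84 and 8.81 in wild type, a difference of 0.02 (95% interval -0.13 to 0.17). Capn2, the catalytic subunit of m-calpain, read 6.63, 6.43 and 6.37 in Hdh4/Q80 replicates 7, 8 and 9, against 6.79, 6.63 and 6.59 in wild-type replicates 4, 5 and 6. Replicate 7 overlapped with wild type and the other two Hdh4/Q80 mice were lower. The Capn2 difference was -0.20 ± 0.0888 (SE; limma, unadjusted p = 0.0513, adjusted p = 0.857), and a dim probe set of the gene gave 0.13. It was -0.044 with array weights and -0.035 with the probe sets averaged, while its unadjusted p was under 0.05 in 6 other alternatives (lowest 0.0157, limma, without Hdh4/Q80 replicate 7). Capns1, the small subunit that both enzymes share, differed by -0.05. Capn3, Capn5, Capn6, Capn7, Capn9 and Capn10 ran from -0.01 to 0.11, with Capn9 at the upper end.

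The Gadd45 genes, induced by DNA damage and other stress, showed 2 negative differences and 1 near 0. Gadd45a read 6.08, 5.80 and 6.11 in Hdh4/Q80 replicates 7, 8 and 9, against 6.21, 6.09 and 6.11 in wild-type replicates 4, 5 and 6. Replicate 8 was the lowest, and the difference of -0.14 became -0.04 without it. Gadd45g read 7.47, 7.05 and 7.27 in Hdh4/Q80 mice, against 7.29, 7.43 and 7.45 in wild type, a difference of -0.13 that was -0.02 without replicate 8 and 0.03 with array weights. Gadd45b, induced by neuronal activity, had 0.02 on its brighter probe set and -0.17 on the dimmer.

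Probe sets of the same gene often disagreed in sign. Of the 22 cell death genes with several probe sets, 12 (54.5%) had differences on both sides of 0, against 52% of 2073 genes with several probe sets on the whole array. The median range between probe sets of a gene was 0.18 in the cell death genes and 0.11 in all. The widest were Bad (0.59), Capn2 (0.32), Casp8ap2 (0.27) and Birc2 (0.24). The dimmer probe sets of Birc2, Casp2, Bnip1 and Gadd45b given above carry an _f_at suffix. Tradd, Bcl2l10, Bnip2 and Tnfrsf1a were read on _r_at probe sets, Bad and Xiap on _i_at ones and Fas on an _s_at one. Whether suffixed probe sets measure a single gene was not tested. The groups did not overlap for 5 of the 62 genes (8.06%), namely Casp8, Bad, Traf5, Bid and Bnip1, against 11.1% of all genes. Values were compared unrounded and with no tolerance, and Bad counts only through the margin past the third decimal given above.

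**Figure D5:**
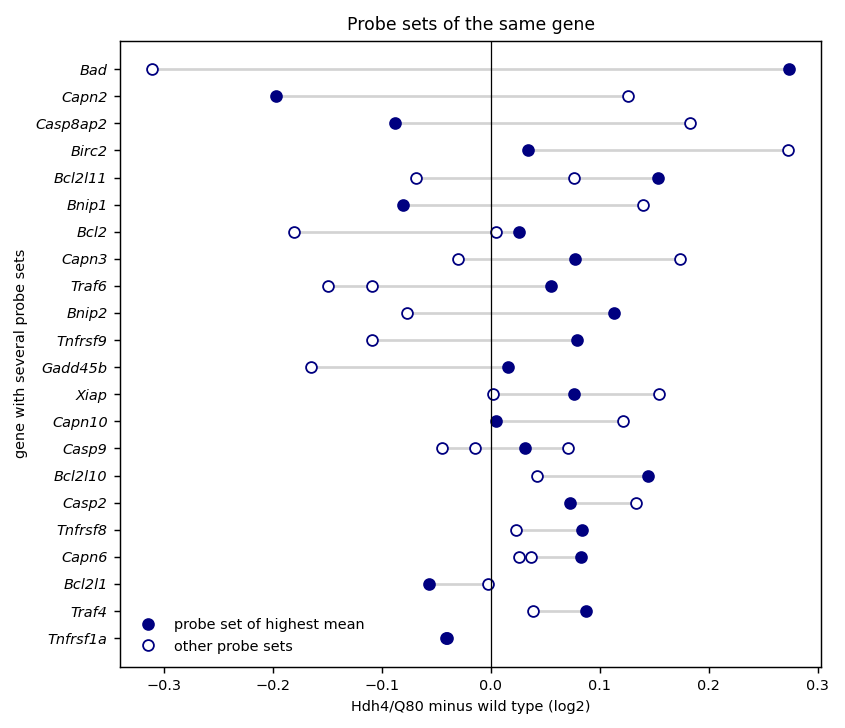
Differences between Hdh4/Q80 and wild type (x axis, log2) on each probe set of the 22 cell death genes with several (y axis, ordered by range); filled dots mark the probe set of highest mean. Lines cross 0 in 12 genes, and that of Bad is the longest.

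Related genes outside the chosen symbols gave no call either. Of 96 measured genes in 7 lists of mitochondrial effectors, Bcl2 partners, caspase substrates, death ligands and kinases, p53 targets, JNK and endoplasmic reticulum stress and NF-kB, 0 passed limma's test and 3 had an unadjusted p under 0.05 (3.12%, against 4.3% of all genes), with a median of -0.02. Those 3 were higher in Hdh4/Q80: Lta, lymphotoxin alpha, by 0.31 ± 0.0877 (SE), Tnfsf10, the ligand TRAIL, by 0.24 ± 0.0879, and Htra2, a mitochondrial protease that blocks inhibitors of apoptosis, by 0.31 ± 0.101 on an _r_at probe set (limma, adjusted p = 0.857 for each). In each of the 3, Hdh4/Q80 replicate 8 held the highest value (8.52, 5.26 and 10.84). Their differences without that mouse were not examined. Tnfsf10 (mean 4.98), like Fis1, Chek1 and Tnfaip3 below, lay under the lower quartile of every array. In the ligand and kinase list 11 of 18 genes were above 0 (median 0.03), and in the mitochondrial list 6 of 15 (median -0.01), with Fis1, a fission adaptor, at -0.17. Of 9 Bcl2 partners 3 were above 0 (median -0.06), with Tmbim1 at -0.17 and Bag3 at -0.12. Of 15 caspase substrates and inhibitors 7 were above 0, with Parp1, a repair enzyme that caspases cut, at -0.17 and Api5 at -0.13. Of 13 p53 and damage genes 5 were above 0, with Perp at 0.15 and Chek1 at 0.10. Of 15 JNK and stress genes 4 were above 0 (median -0.05), with Hspa5, an endoplasmic reticulum chaperone, at -0.26 and Atf4 at -0.14. Groups overlapped in both genes. Hspa5 read 9.52, 8.86 and 9.04 in wild-type replicates 4, 5 and 6, against 8.86, 8.91 and 8.86 in Hdh4/Q80 replicates 7, 8 and 9. Of 11 NF-kB genes 4 were above 0, with Tnfaip3 at 0.14 and Nfkbia at -0.19.

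Markers of other cell types differed between groups in part, but none passed limma's test (adjusted p of 0.857 or more). The 9 measured microglial markers were below 0 in 9 of 9 cases, and their summed linear signal was 3240 to 3950 in Hdh4/Q80 and 4160 to 4450 in wild type, without overlap. C1qb (-0.35), C1qc (-0.32), C1qa (-0.28) and Tyrobp (-0.21) were lower in every Hdh4/Q80 mouse than in any wild-type mouse. That is 4 of 9 markers (44.4%), against 11.1% of all genes without overlap. Hdh4/Q80 replicate 8, the array that stood apart, held the lowest value of each of the 4. Their differences without that mouse were not examined. The linear sum is weighted to bright markers, of which C1qc was the brightest (mean 10.11). Csf1r, Fcer1g, Ctss, Aif1 and Cx3cr1 overlapped between groups, with differences from -0.115 (Csf1r) to -0.008 (Cx3cr1). Microglia express several of the receptors and inflammatory caspases above, and the part of these marker differences in their values was not tested. The summed signal of 7 oligodendrocyte markers was 11500 to 12200 in Hdh4/Q80 against 12500 to 13200 in wild type, with 2 of 7 above 0. The lower sum was led by Mobp, at -0.31, and Mal was at -0.235. Mbp, Mag and Mog, at 0.008, -0.034 and -0.035, overlapped between groups. That of 7 astrocyte markers was 4060 to 4550 in Hdh4/Q80 against 4540 to 4750 in wild type, with 1 of 7 above 0. Endothelial and mural markers summed to 1590 to 1620 in Hdh4/Q80 against 1610 to 1760 in wild type, yet 5 of 9 were above 0 (median 0.002), with Vwf at -0.30 and Cldn5 at -0.21 against Pecam1 at 0.15. Blood markers summed to 3160 to 3450 in Hdh4/Q80 against 3810 to 4370 in wild type, yet 6 of 9 were above 0 (median 0.02), and the sum was led by the brightest of them, the haemoglobin gene Hba-a1, at -0.43. The 4 choroid plexus markers, all above 0, summed to 676 to 3130 in Hdh4/Q80 and 616 to 1700 in wild type. The 4 cortical markers, 1 of them above 0, summed to 537 to 645 in Hdh4/Q80 and 550 to 847 in wild type. Of the 5 measured striatal projection neuron markers, Penk, Tac1, Drd2 and Pdyn lay above the array medians in all mice and Rgs9 (mean 5.63) lay below the lower quartile. They summed to 9930 to 11000 in Hdh4/Q80 and 9620 to 11500 in wild type, with 4 of 5 above 0.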

How the data were processed

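The authors deposited 1 log2 value per probe set and array, computed by RMA (affy), per the submitters' processing notes. No source used here gives software versions or the set of arrays normalized jointly. RMA equalises arrays, so a global change in RNA amount would not be seen, and it shrinks differences of dim probe sets. Groups and replicate numbers came from the sample titles, 1 array per mouse. After 66 control probe sets were left out, limma 3.58.1 in R 4.3.3 was fitted to all 12422 probe sets (lmFit, eBayes; degrees of freedom 4 residual and 5.81 prior), and p-values were adjusted by Benjamini and Hochberg's method, with a threshold of 0.05. No depth applies to arrays; their number limits the precision. A platform annotation named 1 gene for 10833 probe sets, several for 396 and none for 1193. The fit was tested on simulated data with independent errors. That test required recovery only of its largest added changes, which exceeded every difference given here. It therefore does not show that small differences would be called.

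Cell death genes and related lists were chosen with earlier results of these data known. The rule for named genes took a panel of 22 genes (20 analysed here), and for each role the gene of highest value and of smallest p on either side, plus the 5 genes of smallest p on either side overall. Further genes were given to account for every member. Alternatives were median centring, quantile and cyclic loess normalization, leaving out the dimmest 40% of probe sets, array weights, a trended and robust variance prior, averaging the probe sets of a gene, leaving out suffixed probe sets, and leaving out each mouse.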

Additional observations from a re-analysis of the deposited data

How the results depend on the processing

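No paired analysis was possible because the groups share no replicate numbers. Under every alternative run, 0 cell death genes passed the adjusted threshold, and 0 probe sets did wherever probe sets were counted (not with a gene's probe sets averaged or suffixed ones left out); the smallest adjusted p over all probe sets was 0.0873 (array weights), then 0.335 (Hdh4/Q80 replicate 7 left out). The array weights rested the mutant side on replicate 7 (6.19, against 0.228 and 0.405 for replicates 8 and 9). The count of genes at an unadjusted p under 0.05, 3 as reported, was 1 without the dimmest 40% of probe sets (39 genes left, Casp8 and Bid not among them; 3.86% of all genes), 8 with array weights (13.1% of all genes), and 0 to 6 when each mouse was left out (1.64% to 8.34% of all genes). The median difference of the cell death genes, 0.024, ran from 0.017 to 0.044 when each mouse was left out.

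Of 420 recomputed differences of the 31 named genes, 387 kept their sign and 33, in 14 genes, changed it; the cause was not tested. With each mouse left out, the ranges of genes that changed sign were -0.051 to 0.031 for Casp6, -0.02 to 0.079 for Bcl2, -0.033 to 0.028 for Bak1, -0.013 to 0.049 for Apaf1, -0.071 to 0.102 for Cycs, -0.049 to 0.095 for Fadd, -0.005 to 0.046 for Capn1, -0.114 to 0.003 for Capns1, -0.162 to 0.02 for Casp8ap2, -0.144 to 0.112 for Tradd, -0.095 to 0.107 for Gadd45b and -0.036 to 0.047 for Birc3. After quantile normalization Apaf1 was -0.003 and Tradd 0.001, and after cyclic loess -0.007 and 0.011. With array weights Gadd45g was 0.03, Tradd 0.027, Gadd45b -0.006 and Birc3 -0.04. With a gene's probe sets averaged, Bcl2 was -0.05, Bad -0.018, Casp8ap2 0.047 and Gadd45b -0.075, and without suffixed probe sets Bad was -0.311. Without 1 wild-type mouse Birc5 was -0.04 (replicate 5), Capn9 0.063 (replicate 4) and Tnfrsf11b 0.072 (replicate 6). Precision is limited by 3 arrays per group and, for 9 dim genes, by signal near background.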

Other observations

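A few probe sets of the same families carry several gene symbols and were left out above. The Bcl2a1 genes, near-identical survival members of the Bcl2 family expressed in blood cells and microglia, have 2 probe sets that carry their symbols alone, and these differed by 0.09 and 0.06 between Hdh4/Q80 and wild type. A further probe set also carries Mthfs, an unrelated gene, so its difference of -0.07 cannot be given to either. Groups overlapped in each. A probe set shared by Bnip3l, a mitophagy receptor, and its pseudogene read 8.57, 8.52 and 8.63 in Hdh4/Q80 mice, against 8.66, 8.56 and 8.67 in wild type, a difference of -0.06. None of the 4 passed limma's test (adjusted p = 0.871 to 0.897).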
